A study of Mus musculus with 12 samples.

Results

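The cells described here were the noncycling cells of tumor 2 (MT2) that carried RNA of Grem1, Ptgs2, Inhba and Cxcl5. A cell was taken as a member when it came from an MT2 library, had 0 unique molecular identifiers (UMIs, counted RNA molecules) in all over the cycling genes Top2a, Mki67, Cenpf, Cenpe, Tpx2 and Aspm, had 3 or more UMIs in all over the 4 marker genes, and had 0 UMIs of the leukocyte genes Ptprc and Tyrobp and of the endothelial genes Pecam1 and Cdh5. This rule found 2634 of the 10314 MT2 cells, among 21157 cells in all 12 libraries. The 3 MT2 libraries gave 693, 1179 and 762 members. Members were thus selected on their UMIs of these 14 genes, which are given below as a description with no test.

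Drop-seq, which captures the 3′ ends of RNA from single cells in droplets, was run on a mammary tumor and on mammary gland of each of 2 mice. Every library came from an MMTV-Cre; Brca1flox/flox animal of mixed C57BL/6 and 129/Sv strain, in which Cre recombinase under the mammary tumor virus promoter deletes part of Brca1 in mammary epithelium, and no library came from an animal with intact Brca1. Tumor 1 (MT1) had 5 libraries, MT2 had 3, and the glands MG1 and MG2 had 2 each. Cell suspensions had been enriched for lineage-negative epithelial cells by depleting hematopoietic and endothelial cells, the labels give no age, and with 1 tumor from each mouse, tumor and mouse cannot be told apart. Libraries of a tumor were the replicates, so every p-value below measures the spread between libraries of the same tumor.

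The 4 marker genes belong to separate secreted signals. Grem1 encodes gremlin 1, a secreted antagonist that binds bone morphogenetic proteins (BMPs) and keeps them from their receptors. Ptgs2 encodes cyclooxygenase 2, the inducible enzyme that turns arachidonic acid into prostaglandin H2, which Ptges, an inducible synthase, converts to prostaglandin E2. Inhba encodes the subunit that forms activin A, a ligand of the TGF-beta family that follistatin (Fst) binds and blocks, and Cxcl5 encodes a chemokine that attracts neutrophils through the receptor Cxcr2. In mammary gland and its tumors such factors are known from stromal fibroblasts and from tumor cells with mesenchymal features.

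The MT2 libraries held between 13629813 and 14841414 UMIs, and the members together held 8479704. Any pair of MT2 libraries had at most 7 barcodes in common, and their counts differed by more than sampling noise. Brca1 UMIs were found in all 3 MT2 libraries at 8.42, 11.1 and 10.5 CPM (UMIs of the gene per 1000000 UMIs of the cells summed), and counts of 3′ ends do not check a deletion elsewhere in the gene. In the members Brca1 stood at 1.42, 2.47 and 1.06 CPM.

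Some genes of mesenchymal cells were frequent among the members and others were low. Of 20 genes on the mesenchymal list, 13 reached 20 CPM in the members with at least 1500 UMIs. Cdh11 (cadherin 11) stood at 40.7, 7.42 and 28.7 CPM in all members of the 3 libraries. Levels are UMIs of 3′ ends and were not scaled by gene length. Vim, the intermediate filament vimentin, was found in 99.1% of members at 3940 to 4036 CPM over the 3 libraries, Fn1 (fibronectin) in 96.9% and Cd44, a hyaluronan receptor, in 84.3%. Krt8 and Krt18, keratins of simple epithelium, were found in 44.4% and 52.8% of members. Epcam, an epithelial adhesion molecule, had UMIs in 1.1% of members and Cdh1, E-cadherin, in 0.266%, while Krt5 of basal epithelium was at 0. For comparison, leukocyte cells of MT2 were those with 3 or more UMIs over Ptprc and Tyrobp, 88 in all. No limit on cycling genes was set for them, and Top2a was found in 35.2%. In these 88 cells Vim was found in 100%, Fn1 in 65.9%, Cd44 in 84.1%, Krt8 in 14.8%, Krt18 in 22.7% and Epcam in 3.41%. Vim and Cd44, which leukocytes are known to express, did not set the members apart from these cells by share.

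Fibroblast genes differed in how often they were found. All 12 genes of the fibroblast list were detected, with a summed level of 1415 to 1628 CPM across the libraries. Dcn (decorin), a matrix proteoglycan, was found in 80.6% of members and Pdgfra, the receptor that marks fibroblasts, in 24.1%, but Lum (lumican) in 3.53%, Dpt in 1.59% and Pi16 in 0.304%. The leukocyte cells had Dcn in 27.3%, Pdgfra in 5.68%, Lum in 2.27%, Dpt in 2.27% and Pi16 in 1.14%, where the shares of Dpt and Pi16 rest on 2 cells and 1 cell. Of the members, 2.77% had 2 or more UMIs over Lum, Dpt, Pi16 and Clec3b, genes of tissue fibroblasts. The tests below were also run without cells that had 2 or more UMIs over a wider set of fibroblast-defining genes, Dcn among them.

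As to noncycling, 28 mitotic genes that the rule did not use summed to 508 to 692 CPM in the members and to 4397 to 5347 CPM in the cycling MT2 cells, and 25 DNA replication genes to 503 to 720 CPM and 2114 to 2193 CPM. The members were low in these genes but not at 0, and all 28 and all 25 genes were detected among them.

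Markers of macrophages and of endothelial, mural and gland luminal cells were low. Macrophage markers summed to 16.3 to 30.7 CPM with Adgre1 at 0, endothelial markers to 11.7 to 12 CPM with Tek and Cldn5 at 0, mural cell markers to 39.9 to 53.4 CPM with Cspg4 and Higd1b at 0, and gland luminal markers to 18.8 to 43.5 CPM with Wap and Lalba at 0. Among neutrophil markers Cxcr2 was at 0 and the other 3 measured ones were detected, at 82.5 to 91.7 CPM in sum. In the pooled leukocyte cells Il1r2 stood at 69.7 CPM, S100a8 at 36.5 CPM, Cxcr2 at 3.32 CPM and S100a9 at 0. The exclusion genes of the rule bear on the leukocyte and endothelial lists, so the sums of those lists are in part set by the rule.

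The rule took nearly all eligible noncycling cells of tumor 2. Of the 2850 eligible MT2 cells, meaning those with 0 cycling and 0 exclusion UMIs, 92.4% were members, 177 had a marker sum of 1 or 2 and 39 had a marker sum of 0. Cycling MT2 cells, with 3 or more cycling UMIs, reached a marker sum of 3 in 93.0% of 4464 cells. The 39 eligible cells without any marker UMI, 14, 13 and 12 per library, were the reference set by the rule.

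By library, members made up 92.0%, 93.1% and 91.7% of eligible MT2 cells, with exact 95% binomial intervals of 89.9 to 93.9%, 91.6 to 94.5% and 89.6 to 93.5%. The same rule took 9.94%, 9.52%, 10.5%, 9.29% and 13.1% of eligible cells in the 5 MT1 libraries, 505 of 4819 cells. In gland it took 3.99% and 8.75% in MG1 and 2.87% and 2.68% in MG2. The MT2 libraries lay far above all others and the ranges of the 2 tumors did not overlap.

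Because 2 of the 3 MT2 libraries were deeper per cell than any MT1 library, cells were thinned to 1500 UMIs each for a further comparison, with shallower cells left out. The share was then 82.6%, 87.8% and 83.7% in MT2 and 84.7% ± 2.72 (SD, n = 3), against 8.22% ± 1.58 (n = 5) in MT1, a difference of 76.5 percentage points. Without cells with 2 or more UMIs over Lum, Dpt, Pi16 and Clec3b or of Epcam, a setting added after the data were seen, the MT1 share was 25.5% ± 2.39 and the difference 60.7 points. Without cells carrying fibroblast-defining UMIs the MT1 share was 3.41% ± 0.886 and the difference 81.3 points. The tumors did not overlap at equal depth either. Since the 4 genes were chosen with this tumor in view, the distance is a description and carries no test. Thinning also hides cycling UMIs, which raised the number of eligible MT2 cells to 4135, and it left out 136 MT2 and 772 MT1 eligible cells.

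**Figure D1:**
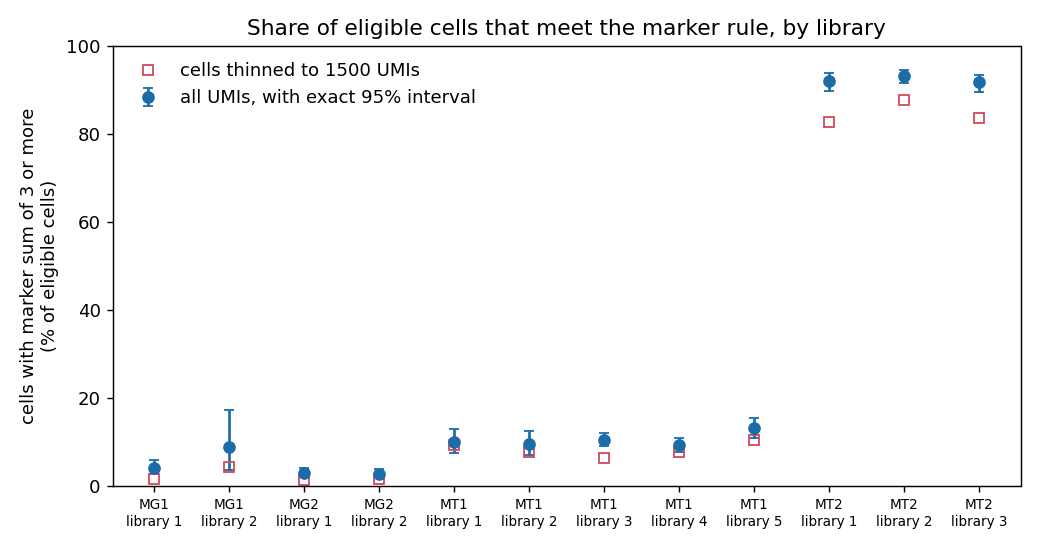
Share of eligible cells (0 cycling and 0 exclusion UMIs) with a marker sum of 3 or more, in percent, for each of the 12 libraries; circles use all UMIs with exact 95% binomial intervals and squares use cells thinned to 1500 UMIs. The 3 MT2 libraries sit above 80% by either measure and the other 9 libraries at or below 13.1%.

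Grem1 (chromosome 2, 113746164 to 113758646, minus strand, GRCm38) had 1332, 1106 and 1270 CPM in the members of the 3 MT2 libraries and was found in 83.9% of members. Ptgs2 (chromosome 1, 150100031 to 150108227, plus strand) had 2690, 2103 and 2655 CPM and was found in 89.7%. Inhba (chromosome 13, 16011851 to 16031621, plus strand) had 2153, 2099 and 1944 CPM in 87.4% of members, and Cxcl5 (chromosome 5, 90759360 to 90761624, plus strand) had 934, 1178 and 1024 CPM in 69.6%. Each gene was of the same order in the 3 libraries, and library 2 had the lowest Grem1 and Ptgs2 and the highest Cxcl5.

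These shares were set beside those of leukocytes, of which macrophages are known to make Ptgs2 themselves. Among the 88 MT2 cells with leukocyte UMIs, at a median of 2376.5 UMIs per cell against 2601.5 in the members, Grem1 had a UMI in 35.2%, Ptgs2 in 39.8%, Inhba in 35.2% and Cxcl5 in 25%. Free RNA or droplets with 2 cells would give such UMIs in leukocytes, and their part was not tested. Members were selected on UMIs of these 4 genes and the leukocyte cells were not, so the shares are a description. At the limit of the rule, the 114 members with a marker sum of 3 had 374 CPM of Grem1 and 337 CPM of Ptgs2, and the 97 cells just outside, with a sum of 2, had 195 and 274 CPM. These adjoining cells had median depths of 1905.5 and 1989 UMIs.

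The 505 cells that the rule took in MT1 had another marker pattern. Their pooled levels were 45.7 CPM of Grem1, 638 CPM of Ptgs2, 1856 CPM of Inhba and 237 CPM of Cxcl5. Grem1 was found in 6.93% of them and Inhba in 89.5%, so in tumor 1 the rule was met mainly through Inhba and Ptgs2. Among the cells the rule took in the glands, Grem1 was at 0 in both MG1 libraries (33 cells) and at 6.19 and 25.9 CPM in the MG2 libraries, with UMIs in 3 of 57 cells.

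**Figure D2:**
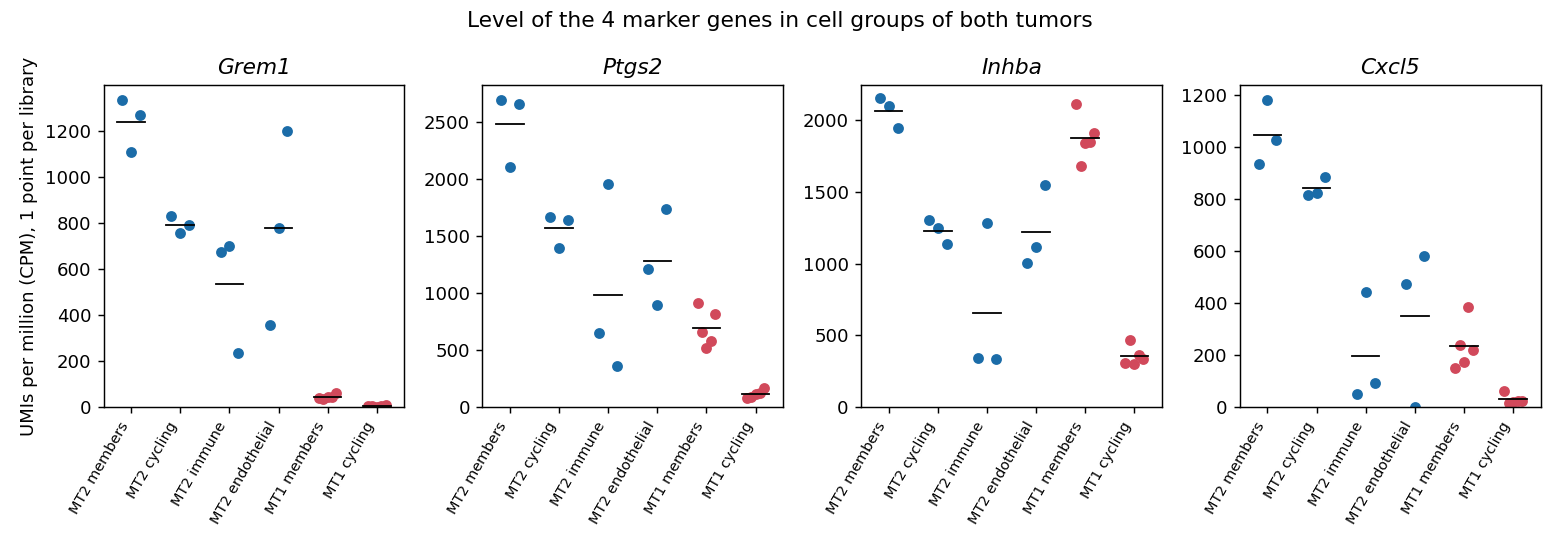
Level of Grem1, Ptgs2, Inhba and Cxcl5 in CPM, with 1 point for each library and a line at the mean, in members, cycling, leukocyte and endothelial cells of MT2 (blue) and in cells under the same rule and cycling cells of MT1 (red). The rule selected members, but not cycling cells, on UMIs of these 4 genes, and in MT2 all 4 are higher in members on average. Grem1 is low in MT1 beside MT2.

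Around these 4 factors the members carried uneven parts of each pathway. Of BMP ligands and antagonists, 7 of 18 genes in the table were at 0 and 4 reached 5% of members. Bmp2 had UMIs in 0.304% of members, Bmp4 in 0.114% and Bmp7 in 0.607%, so RNA of the ligands that gremlin 1 binds was close to absent in the cells with Grem1. Receptors were present at low levels, with Bmpr2 in 27.1% and Bmpr1a in 9.95% of members, and the BMP target genes Id1 and Id3 were found in 11.5% and 10.5%. In the 88 leukocyte cells, given here for comparison, these shares were 19.3%, 2.27%, 5.68% and 3.41%.

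For prostaglandins, some genes of synthesis were frequent and receptors rare. Among other synthesis genes, Ptges3 was found in 36.8% and Ptgs1 in 20.0% of members, Ptges2 in 6.34% and Ptgis in 0.114%. Ptgds and Tbxas1 were at 0. Ptges was at 499 ± 10.8 CPM (SD, n = 3) and found in 66.6% of members, and Pla2g4a, the phospholipase that frees arachidonic acid, in 38.3%. In the leukocyte cells the shares were 22.7% and 14.8%. Of prostaglandin E2 receptors, Ptger1 was found in 0.683%, Ptger2 in 2.89% and Ptger4 in 0.228%, and Ptger3 was at 0, against 0%, 4.55%, 1.14% and 0% of leukocyte cells. Hpgd, which degrades prostaglandin E2, was found in 0.266% of members. The chain from arachidonic acid to prostaglandin E2 was thus measured in these cells, with few UMIs of its receptors or of its degrading enzyme at this depth.

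For activin, Fst was found in 59.8% of members at 631 ± 95.7 CPM and in 23.9% of leukocyte cells. The receptor Acvr2a was found in 7.56% of members and 7.95% of leukocyte cells. Among chemokines other than Cxcl5, Cxcl1 was found in 94.6% at 5525 ± 831 CPM, Cxcl2 in 84.4% at 4668 ± 426 CPM and Ccl2, which attracts monocytes, in 55.2% at 836 ± 209 CPM. The leukocyte cells had UMIs of these 3 genes in 56.8%, 71.6% and 40.9%. Their receptors Cxcr2 and Ccr2 were at 0 among the 2634 members. Csf1, the macrophage growth factor, was found in 63.2%, Il6 in 22.9%, Csf3, the neutrophil growth factor, in 18.5% and Lif in 16.2%, against 25%, 6.82%, 2.27% and 10.2% of leukocyte cells. Il1b was at 0 in the members and was found in 17.0% of the 88 leukocyte cells.

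Members differed in how the 4 genes combined. The median marker sum was 15 UMIs, with the 10th percentile at 5 and the 90th at 46, and the highest cell had 247. All 4 genes were found in 49.2% of members, 3 in 34.3%, 2 in 14.5% and 1 in 2.01%. Ptgs2 had the most UMIs of the 4 in 945 cells, Inhba in 736, Grem1 in 383 and Cxcl5 in 276, with 294 ties. Members of library 2, the shallowest per cell, had a median sum of 13 against 20 and 17.5 in libraries 1 and 3.

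To see which genes went with Grem1 and which with Ptgs2, members with 2 or more Grem1 UMIs and 0 Ptgs2 UMIs (161 cells) were compared with members with 2 or more Ptgs2 UMIs and 0 Grem1 UMIs (307 cells). The counts were summed per library and tested with edgeR's quasi-likelihood F test with the library as a block, with Benjamini-Hochberg adjustment over all genes tested. Chemokine and cytokine genes, Cxcl1, Cxcl2, Il6 and Lif among them, were higher in the cells with Ptgs2. Of 3236 genes tested 37 (1.14%) passed an adjusted p of 0.05, with 35 (1.08%) lower and 2 (0.0618%) higher in the Grem1 cells. The 2 sets had similar depth, with medians of 2274 and 2168 UMIs, and 1990 other members had UMIs of both genes. The sets also differed in the other markers. Inhba had a mean of 1221 CPM in the Grem1 cells and 1650 CPM in the Ptgs2 cells, and Cxcl5 had 564 and 989 CPM. The part of Inhba, Cxcl5 and the marker sum in the differences below was not tested.

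Cxcl1, a chemokine that recruits neutrophils, had 1457, 2060 and 1671 CPM in the Grem1 cells of libraries 1, 2 and 3 and 4153, 7028 and 6386 CPM in the Ptgs2 cells. Cxcl2, its close relative, had 1169, 1640 and 886 CPM against 3518, 5342 and 5045 CPM. For both genes all 3 libraries were higher in the Ptgs2 cells and the sets did not overlap. On the log2 scale Cxcl1 fell by 1.78 in the Grem1 cells (SE 0.10, adjusted p 4.4e-09) and Cxcl2 fell by 1.95 (SE 0.14, adjusted p 9.4e-08).

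Il6, the founding cytokine of its family, had 42.0, 55.7 and 38.5 CPM in the Grem1 cells against 252, 201 and 429 CPM in the Ptgs2 cells. Lif, a cytokine that signals through the same receptor chain as Il6, had 30.0, 6.19 and 0 CPM against 76.5, 75.7 and 106 CPM. Csf3 had 24, 18.6 and 7.70 CPM against 65.0, 112 and 96.5 CPM. The sets did not overlap in any of these 3 genes. On the log2 scale Il6 fell by 2.65 (SE 0.28, adjusted p 2.18e-05), Lif by 2.69 (SE 0.58, adjusted p 0.0223) and Csf3 by 2.37 (SE 0.46, adjusted p 0.0104) in the Grem1 cells. Sfrp1, a secreted Wnt antagonist, had 54.0, 0 and 15.4 CPM against 184, 13.2 and 130 CPM (fell by 2.22, SE 0.41, adjusted p 0.00638), with the sets overlapping.

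Ccl2 had 150, 452 and 362 CPM in the Grem1 cells against 822, 1340 and 902 CPM in the Ptgs2 cells, a fall of 1.76 (SE 0.17, adjusted p 1.02e-05), and the sets did not overlap. Ccl7 fell by 1.29 and Cxcl3 by 1.39. Of 7 chemokines tested 5 were lower in the Grem1 cells, with a median log2 difference of -1.39 against 0.01 over all genes tested, as were 4 of 13 cytokines and growth factors. The number of chemokines lower with Grem1 stayed between 3 and 6 across all settings tried, while of the cytokines and growth factors 1 passed with DESeq2, 2 were lower with no library block and 0 passed without library 3.

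Other genes higher in the Ptgs2 cells were the acute phase gene Saa3, which fell by 1.58 in the Grem1 cells, and the early response genes Ier3 and Btg2, which fell by 1.47 and 1.79. Nfkbia, the NF-kB inhibitor that NF-kB itself induces, fell by 0.60, with the sets overlapping. Of the NF-kB response list 3 of 14 genes and of the immediate early list 3 of 19 were lower in the Grem1 cells. Across the settings tried these counts ran from 1 to 5 and from 0 to 9, with 1 and 0 under DESeq2, without library 1 and without library 3. None of 6 prostaglandin genes, 10 mesenchymal genes or 7 fibroblast markers passed the test.

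Ptges, the enzyme that acts after Ptgs2, was close in both sets. It had 306, 445 and 347 CPM in the Grem1 cells and 337, 484 and 367 CPM in the Ptgs2 cells, a difference of -0.15 (SE 0.16, adjusted p 0.808). For Vim the difference was -0.08 (SE 0.09, adjusted p 0.857).

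Mmp13, a collagenase, and Tia1, an RNA-binding protein, were the 2 genes higher in the Grem1 cells. Mmp13 had 1583, 470 and 686 CPM against 815, 161 and 48.2 CPM, a difference of 1.58 (SE 0.27, adjusted p 0.00339), with the sets overlapping because library 1 was high in both. It had 52.3, 16.1 and 83.8 CPM in members with UMIs of both genes and 1354, 611 and 1612 CPM in members with neither, so its level did not follow Grem1 across these sets. Tia1 had 59.9, 74.2 and 162 CPM against 19.1, 23.0 and 38.6 CPM (1.77, SE 0.40, adjusted p 0.0333). Cells with 2 or more Lum, Dpt, Pi16 and Clec3b UMIs made up 6.21% of the Grem1 cells and 6.51% of the Ptgs2 cells. Without these and the Epcam cells 70 genes passed, and Mmp13 was not among them.

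The number of genes rested on single libraries. Without library 3 it was 4, without library 1 it was 16 and without library 2 it was 39. Cxcl1, Cxcl2 and Ccl2 passed in every setting tried.

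Members with both genes stood near the Ptgs2 cells in some genes and near the Grem1 cells in others. Cxcl1 had 4971, 6314 and 6458 CPM in them and Cxcl2 had 4685, 5031 and 5488 CPM. Il6 had 221, 190 and 223 CPM there and Csf3 had 96.4, 124 and 137 CPM. In all 3 libraries these levels lay above those of the Grem1 cells of the same library. Thbs1 had a mean of 233 CPM in them, against 236 CPM in the Grem1 and 534 CPM in the Ptgs2 cells, and Hp had 76.8 CPM against 73.2 and 280.0 CPM. Klf6 had 555 CPM against 542 and 776 CPM, Mgp 679 CPM against 715 and 1052 CPM, and Sfrp1 5.17 CPM against 23.1 and 109 CPM. These 5 genes were chosen after their values were seen.

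**Figure D3:**
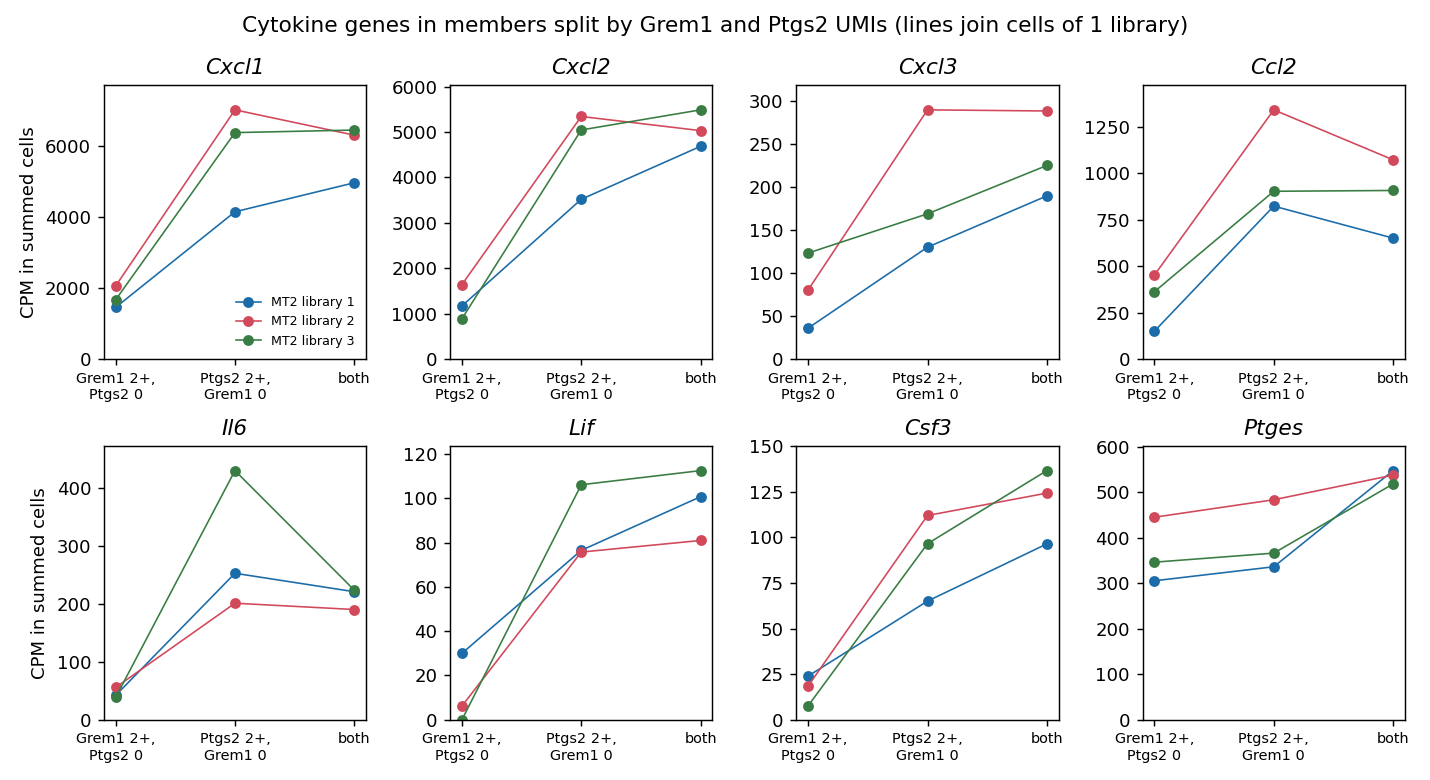
Level in CPM of Cxcl1, Cxcl2, Cxcl3, Ccl2, Il6, Lif, Csf3 and Ptges in MT2 members with Grem1 but not Ptgs2, with Ptgs2 but not Grem1, and with both, with 1 line for each of the 3 libraries. All 8 genes are lower in the Grem1 cells than in the Ptgs2 cells of every library, Ptges by the smallest factor (log2 difference -0.15).

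Because these genes moved together, their promoters are shown beside those of Grem1 and Ptgs2. The lines below give the 120 bases before the transcription start, 5′ to 3′ on the gene's strand, from RefSeq on GRCm38.p6, and capitals mark matches to the motifs searched. The windows are chr2:113758649-113758768 (minus strand) for Grem1, chr1:150099911-150100030 for Ptgs2, chr5:90891125-90891244 for Cxcl1, chr5:90903779-90903898 for Cxcl2, chr5:90785981-90786100 for Cxcl3 and chr5:30012994-30013113 for Il6, the last 5 on the plus strand.
Grem1: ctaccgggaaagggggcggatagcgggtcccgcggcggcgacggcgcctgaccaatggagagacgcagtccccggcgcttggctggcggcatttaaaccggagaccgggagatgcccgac
Ptgs2: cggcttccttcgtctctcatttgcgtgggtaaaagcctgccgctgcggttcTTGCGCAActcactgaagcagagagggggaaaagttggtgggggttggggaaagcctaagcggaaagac
Cxcl1: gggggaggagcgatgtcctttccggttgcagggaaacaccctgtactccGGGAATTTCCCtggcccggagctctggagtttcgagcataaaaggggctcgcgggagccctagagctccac
Cxcl2: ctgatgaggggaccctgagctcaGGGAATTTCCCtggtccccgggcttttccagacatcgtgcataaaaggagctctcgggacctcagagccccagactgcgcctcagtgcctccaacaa
Cxcl3: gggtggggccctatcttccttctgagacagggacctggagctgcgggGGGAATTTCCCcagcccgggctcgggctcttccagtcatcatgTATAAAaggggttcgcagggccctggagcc
Il6: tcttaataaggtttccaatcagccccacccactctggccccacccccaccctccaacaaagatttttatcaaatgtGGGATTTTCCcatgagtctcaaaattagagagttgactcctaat

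The motifs were searched on both strands in the 250 bases before each start. They were the NF-kB motif, the AP-1 motif TGANTCA, the C/EBP motif TTGCGCAA, TATAAA, the CRE TGACGTCA and the E-box CACGTG. Of the 35 genes higher in the Ptgs2 cells 23 had a promoter in the table, and 7 of these 23 held an NF-kB match, namely Lif, Il6, Cxcl2, Cxcl1, Ier3, Cxcl3 and Nfkbia. Of all 32851 promoters, 7.25% held one. In Cxcl1, Cxcl2 and Cxcl3 the match was the same run of letters, GGGAATTTCCC, in which 2 overlapping matches lie. An AP-1 match was in 4 of the 23 promoters and in 6.75% of all, an E-box in 4 and in 6.02% of all, the CRE in 2 and in 1.55% of all, and TATAAA in 2 and in 12.4% of all. The C/EBP motif was in 0 of the 23, and the match of Ptgs2, 69 bases before its start, was in 0.164% of all. A match is a run of letters in a window and was not tested as a binding site. Cxcl5 is named only.

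A second view ranked the 2523 members with at least 1500 UMIs by the share of their UMIs that came from the 4 markers, in equal low, middle and high groups within each library. This ranking used the markers and is given as a description. Of 5622 genes at 20 CPM or more, 92 (1.64%) were higher and 116 (2.06%) lower in the high group by a log2 ratio of 0.5 or more in all 3 libraries. Of 17 cytokines and growth factors 8 were higher and 2 lower past that ratio, and of 29 matrix genes 1 was higher and 6 were lower.

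Lif had a mean of 25.2 CPM in the low, 57.6 CPM in the middle and 181 CPM in the high group, and Il6 had 86.2, 154 and 374 CPM. Cxcl2 had 1703, 3886 and 8360 CPM and Cxcl1 had 2668, 5113 and 8825 CPM. Each of these 4 genes stepped up from low to middle to high on average, by a log2 ratio of high to low of 2.81, 2.10, 2.34 and 1.75. Csf3, Il11 and Csf2 (ratios of 2.30, 2.23 and 2.13) and the inflammasome gene Nlrp3 (2.53) had the same order. Ereg, an EGF receptor ligand, had the opposite order (-4.11), as did Igf1 (-1.71). Of 7 chemokines 4 were past that ratio upward and 0 downward.

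Among the lower genes the ratio was -4.71 for Mfap5, a microfibril protein, -4.70 for Crabp1, a retinoic acid binding protein, -4.21 for Mmp13, -3.18 for Col6a3 and -2.96 for Bgn. The median over the 29 matrix genes was -0.24. Cells with 2 or more Lum, Dpt, Pi16 and Clec3b UMIs made up 8.77%, 1.90% and 7.38% of the low group and 1.31%, 0.272% and 0% of the high group in libraries 1, 2 and 3. These shares moved with these genes, and their part in the ranking was not tested. Median UMIs were alike, at 3478, 2194 and 3078 in the low and 3690, 2012 and 3171 in the high group.

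**Figure D4:**
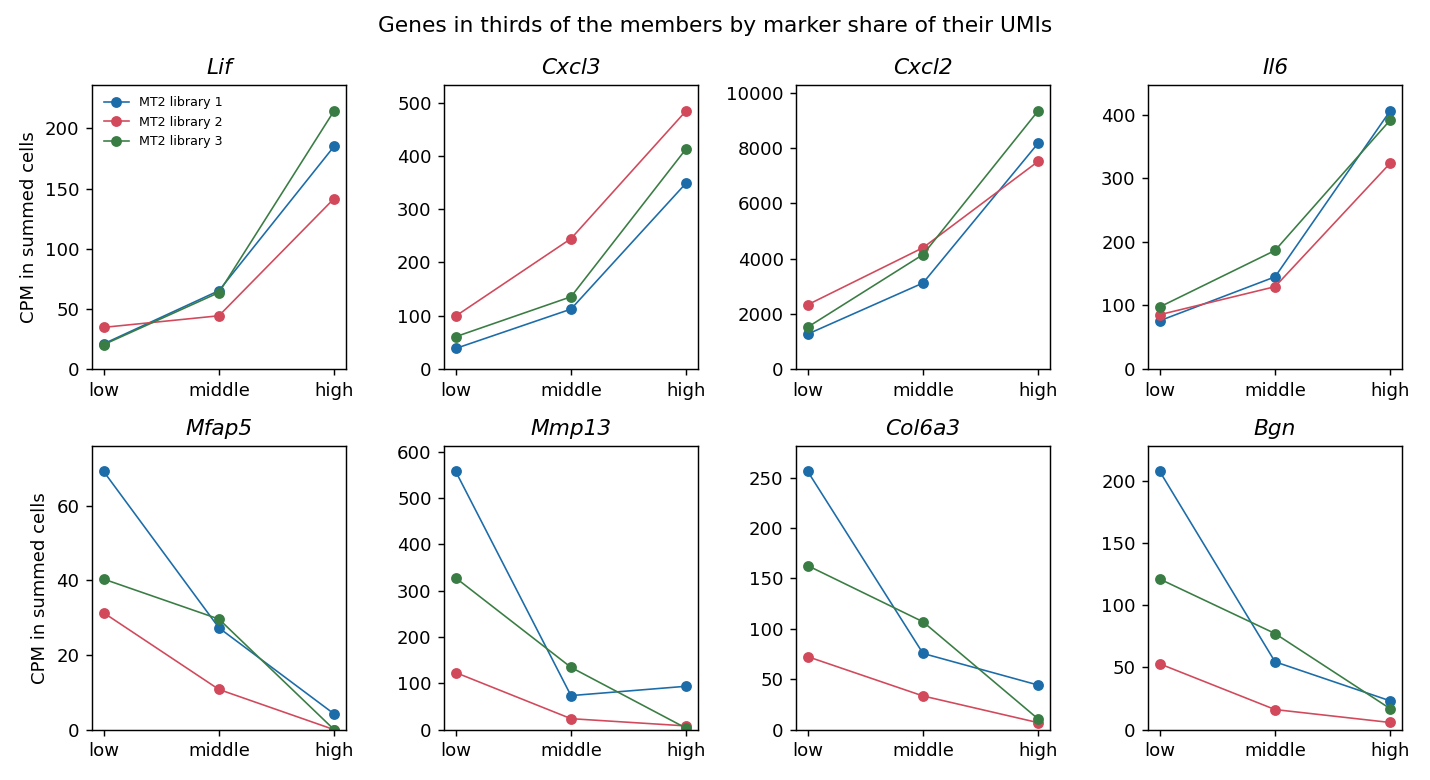
Level in CPM of Lif, Cxcl3, Cxcl2, Il6, Mfap5, Mmp13, Col6a3 and Bgn in members ranked by the marker share of their UMIs, in low, middle and high groups, with 1 line for each MT2 library. The 4 cytokine genes of the top row are highest in the high group, and the matrix and protease genes of the bottom row are highest in the low group on average.

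The next comparison asked how noncycling cells of tumor 2 stood against its cycling cells, with no use of the markers. The noncycling side was all 2850 eligible cells and the cycling side 4464 cells with 3 or more cycling UMIs and 0 exclusion UMIs. Median depths were 2527.5 and 3790 UMIs. The 4 markers had higher levels without cycling, Cxcl5 by the least, and most matrix genes and proteases tested were higher. Of 11337 genes tested, 3593 (31.7%) passed, 1725 (15.2%) higher and 1868 (16.5%) lower in the noncycling cells.

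Grem1 had 1268, 1056 and 1208 CPM in noncycling cells against 831, 756 and 789 CPM in cycling cells. Ptgs2 had 2559, 1999 and 2523 CPM against 1663, 1389 and 1641 CPM. Inhba had 2048, 1998 and 1850 CPM against 1302, 1245 and 1135 CPM. In these 3 genes the groups did not overlap, with log2 differences of 0.61 (SE 0.04), 0.63 (SE 0.03) and 0.72 (SE 0.03). Cxcl5 had 888, 1121 and 977 CPM against 812, 823 and 885 CPM, a difference of 0.28 (SE 0.05).

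The markers remained frequent in cycling cells. Grem1 was found in 82.1% and Ptgs2 in 87.1% of them, and they carried 793 and 1562 CPM. As the 4 genes were picked as markers of noncycling cells with these libraries in view, their differences are a description. With each cell thinned to 1500 UMIs, noncycling cells had a mean of 9.66, 9.17 and 9.44 marker UMIs and cycling cells 6.14, 5.93 and 5.84, so the order held at equal depth.

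Of the 29 matrix genes tested, 28 were higher in noncycling cells, with a median log2 difference of 0.72 against 0.02 over all genes. Col3a1, a fibrillar collagen, had 1406, 618 and 1222 CPM against 211, 262 and 193 CPM (2.27, SE 0.18, adjusted p 1.48e-08). Postn, periostin, had 368, 130 and 371 CPM against 43.7, 53.5 and 40.4 CPM (2.62, SE 0.21, adjusted p 2.26e-08). In both genes library 2 had the smallest difference, and the groups did not overlap.

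Of 22 proteases and inhibitors 18 were higher. Mmp13 had 285, 69.2 and 213 CPM against 26.9, 28.5 and 30.5 CPM (2.68, SE 0.21, adjusted p 1.74e-08), and Mmp3, stromelysin 1, had 143, 94.9 and 63.7 CPM against 15.9, 16.8 and 17.2 CPM (2.63, SE 0.15, adjusted p 1.93e-10). Igfbp3, which binds insulin-like growth factors, had 72.5, 11 and 46.6 CPM against 2.65, 2.86 and 4.04 CPM (3.77, SE 0.27, adjusted p 4.32e-09). All 3 libraries were higher without cycling in each of these genes.

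These matrix changes moved with fibroblast genes. Of 11 fibroblast markers tested 10 were higher in noncycling cells, with a median of 2.34, and cells with 2 or more Lum, Dpt, Pi16 and Clec3b UMIs were 4.04% of noncycling and 0.851% of cycling cells. With these and the Epcam cells left out, 28 of 29 matrix genes were still higher. With every cell left out that had 2 or more UMIs over the wider set of fibroblast-defining genes, Dcn among them, 24 of 28 were higher, and 1325 genes passed in all.

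In the pathways of the markers, Fst was higher in noncycling cells by 0.54 (SE 0.06, adjusted p 5.47e-07), as were Inhbb, the other activin subunit, by 1.30, Tgfb2 by 0.83 and Tgfbr2 by 1.21. In all 12 of 23 genes of the activin and TGF-beta list were higher and 1 lower. Of BMP ligands and antagonists 3 of 5 were higher, with Nbl1, a relative of gremlin 1, at 1.43 and Fstl1 at 0.86, and 1 was lower. Of 12 BMP receptors and targets 5 were higher and 1 lower, with the target Id2 higher by 1.27 (SE 0.27, adjusted p 0.00117). Id2 was found in 2.73% of members and in 50% of the leukocyte cells.

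Of 10 prostaglandin genes 1 was higher and 1 lower, against 15.2% higher and 16.5% lower over all genes tested. Ptges had 482, 500 and 475 CPM in noncycling and 501, 495 and 492.8 CPM in cycling cells (0.01, SE 0.04, adjusted p 0.856).

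Among cytokines and growth factors 14 of 22 were higher and 1 lower. Il6 had 202, 167 and 221 CPM against 96.5, 94.7 and 113 CPM (1.00, SE 0.06, adjusted p 5.86e-10), and the groups did not overlap. Ereg, an EGF receptor ligand, was higher by 3.23, Lif by 0.65 and Csf3 by 0.54. Ereg was found in 2.73% of members and 4.55% of leukocyte cells. Of 13 chemokines 6 were higher and 2 lower, with Cxcl14 at 2.98, Cxcl2 at 0.43 and Cxcl1 at 0.34 among the higher. Cxcl14 was found in 1.40% of members and 25% of leukocyte cells.

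Other genes were lower in the noncycling cells. Ccl5 had 1.01, 1.00 and 0 CPM in noncycling against 11.6, 7.81 and 3.14 CPM in cycling cells (fell by 3.40, SE 0.41, adjusted p 3.8e-06) and Cxcl10, an interferon-induced chemokine, fell by 2.19 (SE 0.40, adjusted p 0.000304). Ccnd1, cyclin D1, fell by 0.48 (SE 0.05, adjusted p 2.17e-06). Brca1, which is known to be transcribed with S phase, had 1.34, 2.34 and 1.01 CPM against 12.9, 15.6 and 17.8 CPM (fell by 3.24, SE 0.28, adjusted p 5.49e-08). All 28 mitotic genes outside the rule and 24 of 25 DNA replication genes were lower, which follows from the split.

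**Figure D5:**
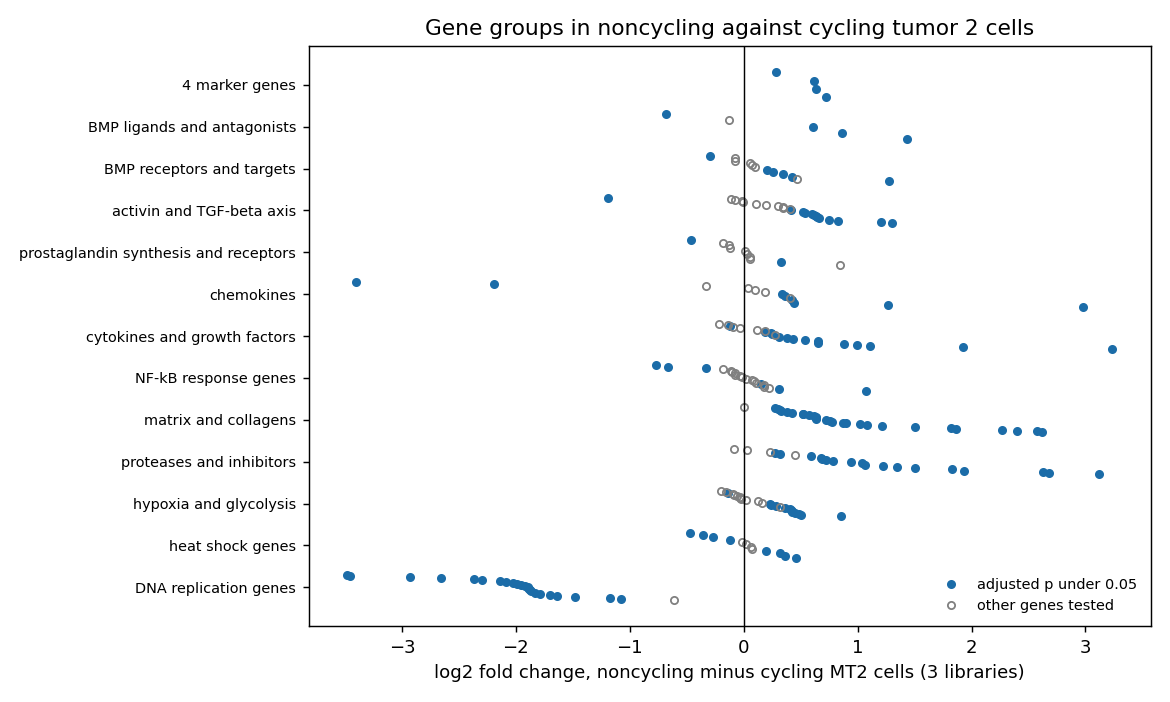
Log2 fold change of noncycling against cycling MT2 cells for each gene tested, over 3 libraries, in the 4 marker genes and 12 gene groups. Filled points have an adjusted p under 0.05 and open points do not. The 4 markers were chosen with these libraries in view, so their fill is not to be read as a test. The 4 markers and nearly all matrix genes lie to the right of 0, and the DNA replication genes to the left.

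Members were then set against the 39 reference cells of the same libraries, which had no marker UMI. The 39 reference cells held 84650 UMIs in all, and the 2634 members held 8479704. In the reference 3 UMIs thus equal 35.4 CPM, and genes of low level could not be compared. In the members 4 of 7 chemokines were higher, and of 28 matrix genes 14 were lower and 1 was higher. The NF-kB response list had 2 higher and 1 lower of 8, and cytokines and growth factors had 1 higher and 2 lower of 7, Ereg (fell by 3.89) and Igf1 (fell by 3.01). Of 4 BMP ligands and antagonists tested 2 were lower in the members, Nbl1 (fell by 3.59, adjusted p 0.00188) and Fstl1 (fell by 1.46, adjusted p 0.000248). Fstl1 did not keep this sign without cells carrying fibroblast-defining UMIs (0.44, adjusted p 0.849). Of 1893 genes tested 98 passed (5.18%), 28 higher (1.48%) and 70 lower (3.7%). With the reference matched on total UMIs 34 passed.

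Cxcl2 had 4227, 4701 and 5077 CPM in members against 507, 1076 and 252 CPM in the reference (2.98, SE 0.26, adjusted p 7.58e-08). Cxcl1 had 4568, 5947 and 6061 CPM against 1663, 1777 and 2015 CPM (1.55, SE 0.16, adjusted p 1.28e-06). The members were higher in all 3 libraries, the groups did not overlap, and both genes passed in every setting tried. Cxcl3 had 169, 272 and 208 CPM against 0 in each reference, at least 6.10-fold higher with 3 UMIs over the whole reference as the floor. The median over the 7 chemokines tested was 1.55 against -0.01 over all genes.

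Ptges had 497, 511 and 490 CPM in members against 84.5, 187 and 36.0 CPM in the reference (2.35, SE 0.44, adjusted p 0.00188), and the groups did not overlap. Of 3 prostaglandin genes tested Ptges alone passed. Ier3 was higher by 1.87 (SE 0.34, adjusted p 0.00131), Saa3 by 2.21 (SE 0.50, adjusted p 0.00877) and Slpi, an inhibitor of leukocyte proteases, by 1.76 (SE 0.25, adjusted p 6.4e-05). Fst differed by 1.06 (SE 0.31, adjusted p 0.0522) and did not pass.

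Among matrix genes Postn had 295, 103 and 286 CPM against 2818, 608 and 4967 CPM (fell by 3.53, SE 0.25, adjusted p 4.17e-09), and Lum had 62.7, 18.7 and 44.6 CPM against 564, 187 and 900 CPM (fell by 3.73, SE 0.37, adjusted p 5.47e-07). The groups did not overlap in either gene. Vim had 3940, 3999 and 4036 CPM against 3636, 3414 and 5687 CPM, a difference of -0.10 (SE 0.16, adjusted p 0.831). Of the early response genes 3 of 15 passed, Jun, Fos and Fosb, which fell by 1.35, 1.23 and 1.1, and Fosb was at 1.06 (adjusted p 0.615) without cells carrying fibroblast-defining UMIs.

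The reference was rich in fibroblast-like RNA. Of its cells 30.8% had 2 or more UMIs over Lum, Dpt, Pi16 and Clec3b, against 2.77% of members, and its fibroblast markers summed to 2338 to 4247 CPM. Epcam, Wfdc18 and Lyz2, which fell by 3.29, 4.84 and 4.50 in the members, had no UMI in the reference of library 3, and the groups overlapped. Without the Lum, Dpt, Pi16, Clec3b and Epcam cells, 37 of 1419 genes passed, 18 higher and 19 lower, with 5 of 6 chemokines higher and 6 of 22 matrix genes lower. Without all cells carrying fibroblast-defining UMIs, 2 of 780 passed, 2 of 3 chemokines higher and 0 of 18 matrix genes lower. Without library 1, 17 genes passed.

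In MT1, whose libraries the rule did not use, the same split gave another picture. Of 6633 genes tested, 3091 (46.6%) passed, 1604 (24.2%) were higher and 1487 (22.4%) lower in the 505 cells than in the 3739 cells with no marker UMI. Vim had 7122, 5275, 5637, 5090 and 6209 CPM against 264, 187, 196, 233 and 308 CPM (4.66, SE 0.08, adjusted p 2.93e-28). Cav1, caveolin 1, was higher by 5.23 and Cldn3, a tight junction protein, was lower, with a difference of -2.29. All 5 libraries had these directions and no groups overlapped.

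Matrix genes (25 of 27 higher) and mesenchymal genes (12 of 13 higher) rose in the MT1 cells, and 17 of 19 epithelial genes fell. The MT1 reference was epithelial, since 80.9% of its cells had 2 or more Epcam UMIs against 5.13% of the MT2 reference. Of 13 chemokines 8 were higher and 5 lower in the MT1 cells. Cxcl1, Cxcl2 and Cxcl3 were higher in both tumors, at 1.81 (SE 0.07), 2.00 (SE 0.11) and 4.01 (SE 0.21) in MT1, as was Ptges at 1.75 (SE 0.14). Ccl2 was higher in MT1 at 3.50 (SE 0.11) and at 0.60 (adjusted p 0.256) in MT2, where it did not pass.

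The difference between the tumors was itself tested, as the MT2 change minus the MT1 change, and 390 of 1867 genes passed (20.9%), 185 higher (9.91%) and 205 lower (11%). Of 27 matrix genes 23 had a lower change in MT2, with Col3a1 at -6.50 (SE 0.33, adjusted p 6.48e-12) and Fstl1 at -5.39 (SE 0.24, adjusted p 1.08e-12), and Vim was at -4.64 (SE 0.18, adjusted p 1.65e-13). Of 5 chemokines tested 1 had a higher and 1 a lower change in MT2. Ccl2 had the lower change (-2.78, SE 0.40, adjusted p 2.51e-05), but was at 0.45 (adjusted p 0.815) without cells carrying fibroblast-defining UMIs. Cxcl2 had the larger change in MT2 (1.11, SE 0.36, adjusted p 0.0305), as did Slpi (1.15, SE 0.31, adjusted p 0.00891). The Cxcl2 call was lost without MT2 library 1 (1.12, adjusted p 0.0982), MT2 library 3 (0.68, adjusted p 0.283), MT1 library 3 (1.01, adjusted p 0.0524) or MT1 library 5 (1.07, adjusted p 0.0501), and the Slpi call without MT2 library 1 (0.97, adjusted p 0.0653). The Cxcl2 call was also lost with no library block (1.06, adjusted p 0.085), with 0 UMIs required over 20 cycling genes (0.69, adjusted p 0.251) and without cells carrying fibroblast-defining UMIs (2.59, adjusted p 0.0618). The Slpi call was also lost with the reference matched on total UMIs (1.28, adjusted p 0.0575), with thinned cells (0.46, adjusted p 0.17) and without cells carrying fibroblast-defining UMIs (0.49, adjusted p 0.51). For Cxcl1 the difference was -0.13 (SE 0.17, adjusted p 0.658), but 2.20 (adjusted p 0.00115) without cells carrying fibroblast-defining UMIs. With no low-count filter it was 0.66 (adjusted p 0.00079). For Ptges the difference was 0.73 (SE 0.45, adjusted p 0.32). The makeup of the 2 references cannot be told apart from the tumor in these differences.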

How the data were processed

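The authors aligned the reads with STAR to GRCm38.p6 and made UMI counts per gene and cell with the Drop-seq tools. They deposited raw counts of 21743 genes in 21157 cells of 12 libraries, with at least 800 genes per cell by the values. No cell column of the table was without a sample. The members and lists were chosen with earlier results of these data known.

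Counts were summed over the cells of each group and library, and CPM are UMIs per 1000000 UMIs of those sums. Sums were tested with edgeR 4.0.16 (R 4.3.3) by the quasi-likelihood F test, with TMM factors, filterByExpr, the library as a block and Benjamini-Hochberg adjustment at 0.05. The block is the library both sums come from, and replicate numbers, given in accession order, pair nothing. In the member contrast of MT2 and its difference from MT1, a further filter asked for an expected count of 2 in the smallest sum, because simulated data with filterByExpr alone gave too many false calls. The 14 genes of the rule were left out of the tests, except that the 4 markers stayed in the noncycling comparison. The tests were tested on simulated data. Planned tests of the 4 markers and of the member share between tumors are given as values only, because the markers were chosen with these libraries in view.

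Named genes were the 14 rule genes, Brca1, up to 15 genes in each direction with the largest called change of one sign in all 3 libraries at 20 CPM or more, up to 4 called genes from each list, and, between Grem1 and Ptgs2 cells, the 5 largest in each direction. Not every gene these rules name is reported here. Genes of these lists were also named in the other comparisons, after their values were seen. Alternatives were DESeq2 1.42.0, other size factors and filters, no block, leaving out libraries or cells, other limits and thinning (Python 3.11.15, numpy 2.4.6, scipy 1.17.1). Doublets were not called, and the deepest 5% of cells were left out as an alternative. Intervals and floors (3 UMIs) cover counting error only. Promoters came from a RefSeq table, using the first start listed for each gene.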

Additional observations from a re-analysis of the deposited data

Results flagged for a closer look

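Changes of different size in the 2 tumors were flagged by a test of the difference itself. Between members and cells without marker UMIs, 390 genes had a change that differed between MT2 and MT1. For Vim the MT2 change minus the MT1 change was -4.64, with -0.10 (adjusted p 0.831) in MT2 and 4.66 in MT1. For Col3a1 it was -6.50, with opposite signs, at -2.83 in MT2 and 3.78 in MT1.

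The gland libraries, which entered no test, also held cells under the same rule. There were 90 of them, 33 in MG1 and 57 in MG2.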

How the results depend on the processing

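The numbers of genes that passed moved with several choices. Members against reference in MT2 (98) gave 61 with DESeq2, 379 with no low-count filter, 34 with the reference matched on total UMIs, 180 with thinned cells, 2 without cells with fibroblast-defining UMIs, and 17 to 96 with a library left out. Of the settings chosen after seeing the data, filterByExpr alone gave 318 and leaving out Lum, Dpt, Pi16, Clec3b and Epcam cells gave 37. Noncycling against cycling cells (3593) gave 1545 with DESeq2, 2344 thinned, 1325 without fibroblast-defining cells and 2598 to 3739 with a library left out. With no replicate block that comparison gave 1460 and a Cxcl5 difference of 0.29, while Grem1 against Ptgs2 members (37) gave 10 with no replicate block. The latter gave 8 with DESeq2, 106 unfiltered, 58 thinned, 71 without the deepest 5% of cells, 70 without the Lum, Dpt, Pi16, Clec3b and Epcam cells and 4 to 39 with a library left out. The MT1 contrast (3091) gave 1867 matched, 1762 thinned, 1334 without fibroblast-defining cells, 1729 without the Lum to Epcam set and 2411 to 3202 with a library left out. The difference between tumors (390) gave 1078 unfiltered, 225 matched, 772 thinned, 69 without fibroblast-defining cells, 1007 with filterByExpr alone and 279 to 419 with a library left out. The difference in member share stayed between 74.96 and 77.5 points with a library left out and was 60.7 points without the Lum, Dpt, Pi16, Clec3b and Epcam cells.

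Signs turned in these log2 differences, and the cause was not tested. Among members against reference, Fstl1 turned to 0.44 without fibroblast-defining cells and 0.0051 without the Lum to Epcam set, and Fosb to 1.06 without fibroblast-defining cells. The other genes that turned there had not passed. They were Smad7 (-0.17 without the Lum to Epcam set, -0.37 to 0.75 with a library left out), Hsp90ab1 (-0.11 matched, -0.26 without fibroblast-defining cells), Mif (-0.12 without fibroblast-defining cells), Ccnd1 (-0.29 thinned, -0.36 without fibroblast-defining cells, -0.30 without the Lum to Epcam set, -0.50 to 0.78 with a library left out), Smc4 (0.34 unfiltered, 0.23 with filterByExpr alone, -0.48 to 0.10 with a library left out) and Dut (0.20 unfiltered, 0.29 thinned, 0.085 with filterByExpr alone). Ptges in noncycling cells turned to -0.049 unfiltered and ranged from -0.015 to 0.022 with a library left out. Between tumors, Ccl2 turned to 0.45 without fibroblast-defining cells, and Ptges to -0.24 thinned and -0.026 without the Lum to Epcam set. Cxcl1 turned to 0.66 unfiltered and 2.20 without fibroblast-defining cells, and passed in both (adjusted p 0.00079 and 0.00115). It turned to 0.25 thinned, 0.38 with filterByExpr alone and 0.51 without the Lum to Epcam set, and did not pass there. In the 39 reference cells 3 UMIs equal 35.4 CPM, which limits that contrast to genes of higher level.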
